A study of Rattus norvegicus with 2 samples.

Results

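Caspases, the Bcl2 family, the inhibitors of apoptosis and the TNF receptor superfamily hold most of the genes by which a cell starts, restrains or carries out programmed death. They were followed here in liver of diabetic rats treated with γ-conglutin, a lupin seed protein, or with its saline vehicle. Members were all library spots whose gene symbol on the array was Casp, Bcl2, Birc or Tnfrsf with the family's suffix, or 1 of a short list of single genes (Bax, Bak1, Bid, Bad, Bik, Mcl1, Apaf1, Fas, Fasl, Fadd, Xiap, Diablo and Trp53). The members were chosen by gene name, with earlier results of these data known. They are 60 of the 21766 library spots, with 58 symbols: 10 caspase spots, 19 of the Bcl2 family, 6 of inhibitors of apoptosis, 22 of the TNF receptor superfamily with Fas, Fasl and Fadd, and 3 for Apaf1, Diablo and Trp53.

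Adult male Wistar rats were fasted for 12 h and made diabetic by 1 intraperitoneal dose of streptozotocin, a toxin of pancreatic beta cells, at 65 mg/kg. Those whose glycaemia passed 200 mg/dl at 72 h were given γ-conglutin at 120 mg/kg for 7 days, or 0.9% NaCl alone, and no rat of either group was free of diabetes. Liver RNA of 5 rats was pooled per treatment. Both pools were hybridised together to 2 two-colour arrays: on array 1 the dye Alexa555 marked vehicle and Alexa647 marked γ-conglutin, and array 2 had the dyes exchanged. Each treatment was thus 1 sample with 2 technical repeats, so no test over rats could be made and no p-value is given. In these liver homogenates, fewer cells of a type and less RNA per cell cannot be told apart.

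Caspases are proteases that lie in the cell as inactive forms. Initiator caspases (Casp8 and Casp9) are activated on protein platforms, by death receptors such as Fas at the cell surface or by cytochrome c and Apaf1 after the mitochondrion is breached, and they cut executioners such as Casp6. Bcl2 proteins set whether the mitochondrion is breached: Bcl2, Bcl2l1 and Mcl1 hold back the pore formers Bax and Bak1, and Bid, Bad, Bik and Bcl2l11 release them. Hepatocytes carry Fas at a high level and need Bid to die from its signal, while Xiap and the Birc proteins bind caspases or act as ubiquitin ligases in TNF receptor signalling, and Diablo displaces them.

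More members were without signal than with it. A spot's signal was its raw intensity minus its local background, and the limit was the 95th percentile of the same value over the 1235 empty spots, which was 42.5 for vehicle and 30.1 for γ-conglutin on array 1, and 36.0 and 52.2 on array 2. Of the 60 members, 27 (45.0%) exceeded the limit in all 4 measurements, that is in both pools on both arrays. Another 32 (53.3%) exceeded it in none. Of the other library spots, 94.1% exceeded it in all 4 and 4.74% in none. Tnfrsf23 lay between, with 3 of 4 measurements above.

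Members without signal were found in every family. Above the limit were 3 of 10 caspases, 6 of 19 Bcl2 family spots, 2 of 6 spots of inhibitors of apoptosis (both named Birc3), 14 of 22 TNF receptor superfamily spots, and Apaf1 and Trp53 of the last 3. The 32 spots without signal lay between 2.69 and 11.3 intensity units for vehicle on array 1, between 1.54 and 9.15 for γ-conglutin on array 1, between 2.05 and 7.42 for vehicle on array 2 and between 3.73 and 26.3 for γ-conglutin on array 2. Their medians, 6.34, 3.59, 4.86 and 8.86, stood beside medians of 4.66, 3.34, 3.85 and 6.56 over empty spots. The 27 spots with signal ran from 50.3 to 64798 over the 4 measurements.

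**Figure D1:**
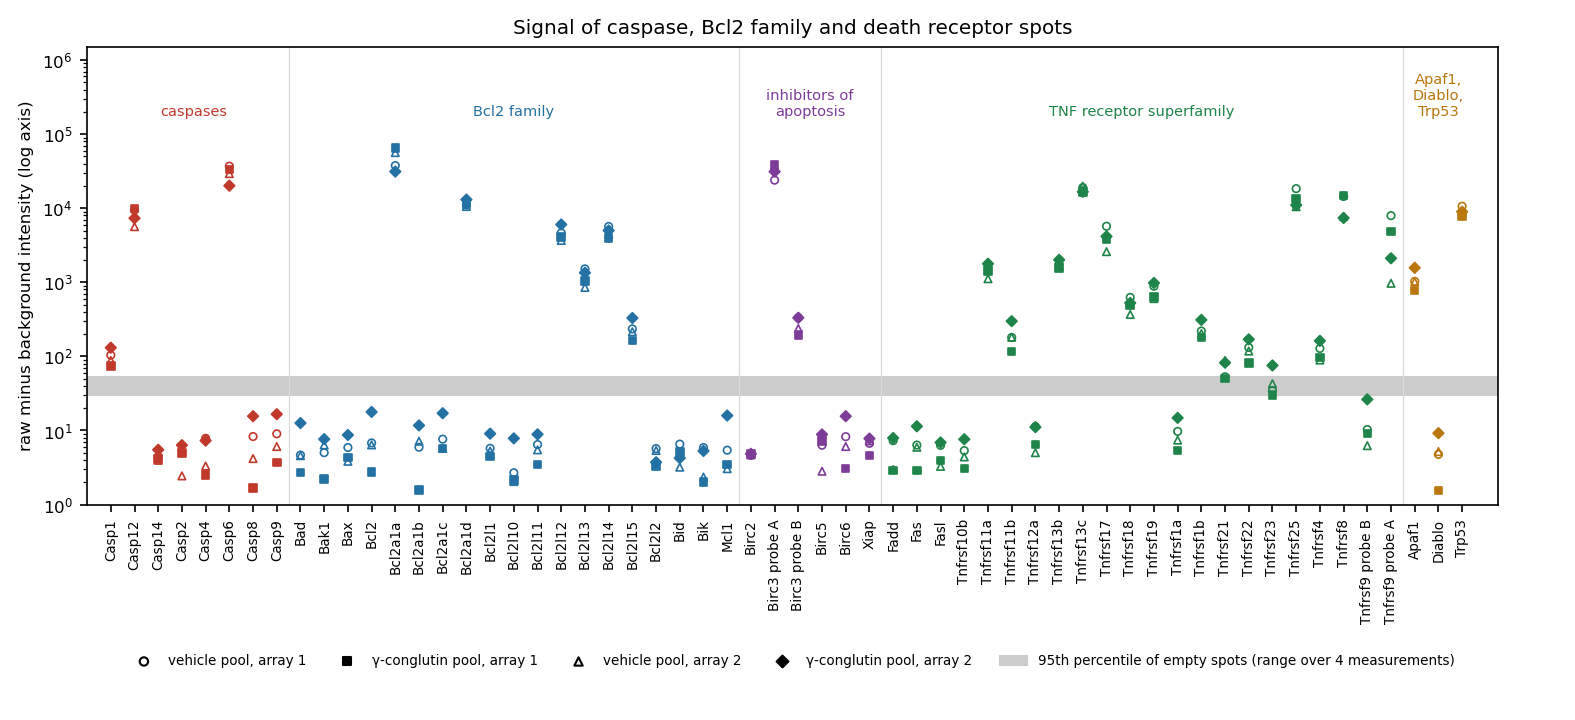
Raw minus background intensity (log axis) of 58 of the 60 member spots, ordered by family, with open symbols for the vehicle pool, filled symbols for the γ-conglutin pool, and the grey band for the range of the 95th percentile of empty spots over the 4 measurements. The 30 members without signal that are shown lie below the band, and the others lie above it except that Tnfrsf21 and Tnfrsf23 reach into it; probes A and B are the brighter and the dimmer probe of a gene with 2.

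The lowest of the members above the limit was Tnfrsf21, whose least measurement was 1.25 times its limit, followed by Casp1 at 2.44 times. The least measurement of Tnfrsf23 was 0.815 times its limit and its highest 1.45 times. Of the members without signal, those whose highest measurement came nearest to its limit were the dimmer Tnfrsf9 probe at 0.504 times and Bcl2 at 0.341 times. The number above depends on the limit, since 20 members exceeded the 99th percentile of empty spots in all 4 measurements. No ratio between pools is read for the 32 spots, since both pools were at the level of empty spots there.

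The initiator Casp8, which acts below death receptors, gave 8.28 for vehicle and 1.68 for γ-conglutin on array 1, and 4.18 and 15.6 on array 2. Casp9, which acts below Apaf1, gave 9.02, 3.68, 6.07 and 16.6 in the same order. All 8 of these values lay below the limits. Casp2, Casp4 and Casp14, which act in stress responses, inflammation and skin, were also without signal.

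In the Bcl2 family, the protective Bcl2 gave 6.79 and 2.75 on array 1 and 6.39 and 17.8 on array 2, in the order vehicle and γ-conglutin. Bcl2l1, the gene of Bcl-xL, gave 5.74, 4.47, 5.29 and 9.06, and Mcl1, which hepatocytes need to survive, 5.42, 3.45, 3.05 and 15.9. None of the 3 survival genes was therefore measured here. The pore former Bax gave 5.89, 4.31, 3.84 and 8.69, and Bak1 5.02, 2.20, 6.38 and 7.64. Bid, which links Fas to the mitochondrion, gave 6.55, 5.16, 3.20 and 4.24. Bad, Bik, Bcl2l2, Bcl2l10, Bcl2l11, Bcl2a1b and Bcl2a1c were at the same level.

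The death receptor Fas gave 6.36 and 2.90 on array 1 and 5.94 and 11.4 on array 2. Its ligand Fasl, its adaptor Fadd, the TRAIL receptor Tnfrsf10b, the TNF receptor Tnfrsf1a and the TWEAK receptor Tnfrsf12a were without signal too, so none of these steps upstream of the caspases was measured. Among inhibitors, Xiap, Birc2, Birc5 and Birc6 had none. Birc5 was also the 1 member that missed the laxer filter used for ratios, an intensity more than 2 SD of the background above it in at least 1 pool on both arrays. That filter kept the other 59 members, and 40 of the 60 passed it in all 4 measurements, so it did not separate members with signal from those without.

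The missing signal followed the place of a spot on the array. The arrays have 48 blocks in 12 rows of 4, each a square of 22 rows by 22 columns of spots. A place here is a row and column within a block, taken over the 12 blocks that share odd or even block row and block column. Of 1840 places with library spots, 73 (3.97%) held library spots without signal in any measurement, 874 spots with 814 named symbols. All 32 members without signal lay at these 73 places. At the places of the 27 members with signal, 11 of 293 other spots were without it.

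**Figure D2:**
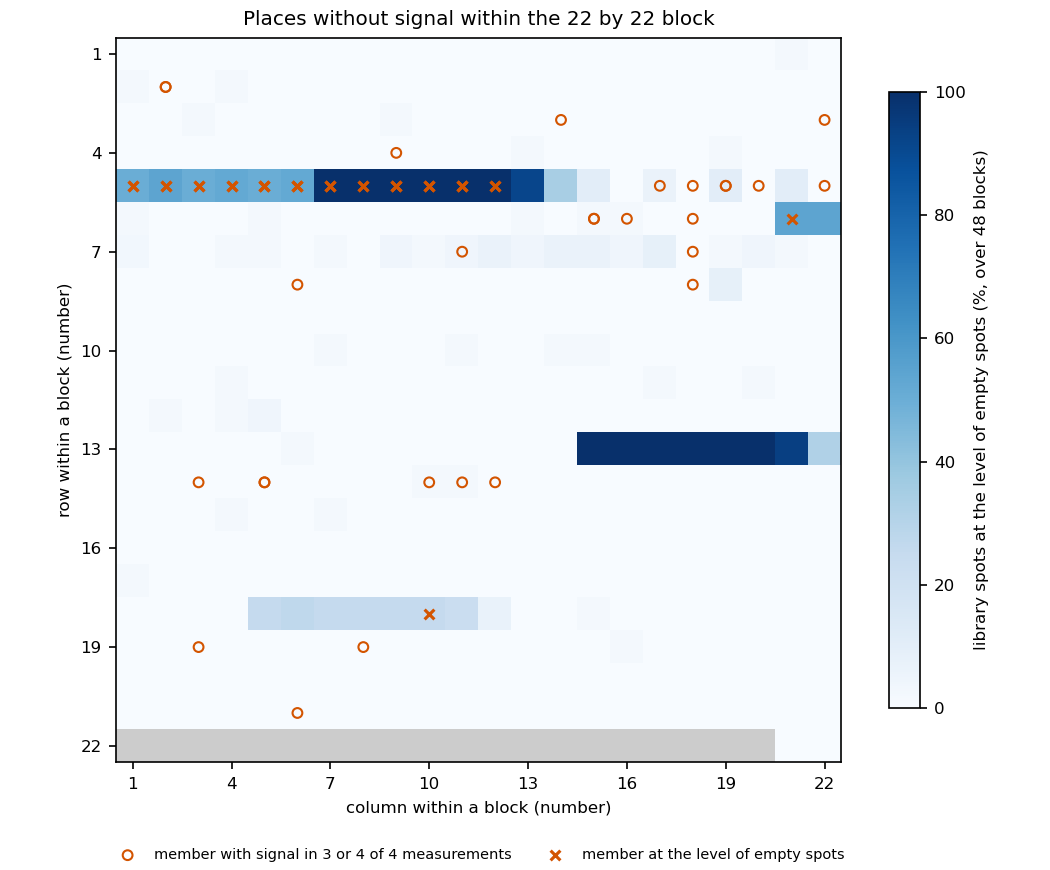
Share of library spots at the level of empty spots (in %, over the 48 blocks) at each row and column within a block, with crosses for members without signal and circles for the other members, some of which share a position (grey, no library spots). All crosses lie in row 5, columns 1 to 12, or at 1 position each in rows 6 and 18, where 26 and 12 of 48 library spots lack signal.

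Of the 32 spots, 30 lay in row 5 between columns 1 and 12, spread over blocks, and all 30 members of that stretch were without signal. The 5 members with signal in all 4 measurements in the same row lay farther right. The other 2 were Tnfrsf12a in row 6 and the dimmer probe of Tnfrsf9 in row 18. The low values of Casp8, Bcl2, Fas and the rest are thus shared by all 349 other library spots at the same places. Nothing on the level of these transcripts in liver can be read from them. How the genes named at these places are related was not tested. Whether the deposited gene names belong to the spots they stand beside was not tested, and the members with signal, Casp6 and Trp53 among them, take their names from the same list. These places were examined after the values of the members had been seen.

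Where signal was present, ratios between the pools were small. A ratio is the log2 of γ-conglutin over vehicle after background correction and loess normalization within an array, given as its average ± SD over array 1 and array 2 (n = 2). That SD shows how far the arrays differ, dye differences of the probe included, and is not an error over rats. By 1.5-fold in the same direction on both arrays, 0 of the 59 members that passed the filter were higher and 0 were lower, beside 0% and 0% of the 21702 probes that passed it. At a log2 ratio of at least 0.32 on both arrays, 0 members were higher, beside 0.00461% of all probes, and 1 was lower, Casp6, beside 0.304%. Among the 20456 filtered probes that also exceeded the limit of empty spots in all 4 measurements, the shares were 0.00489% higher and 0.323% lower, beside 0 and 1 of the 27 members with signal. The arrays pulled apart over the whole set of probes, with a Pearson's r of -0.44 between their ratios across 21702 probes. Probes are not independent replicates.

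The median ratio of the 27 members was -0.01, with -0.01 on array 1 and -0.03 on array 2, against 0.01 over the 20456 filtered probes above the same limit. Mean ratios of the 27 ran from -0.43 for Casp6 to 0.22 for Bcl2l12 and for the brighter Birc3 probe. The sign was shared between arrays for 15 of the 27 members, 7 higher and 8 lower, against 32.9% of the 20456 probes. With median centring in place of loess the 15 became 9, a setting for which the share of all probes was not computed. Under loess the other 12 of the 27 members had opposed signs. By construction these are the members whose dye ratio, Alexa647 over Alexa555, exceeded the pool ratio in size, so this is no separate result.

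**Figure D3:**
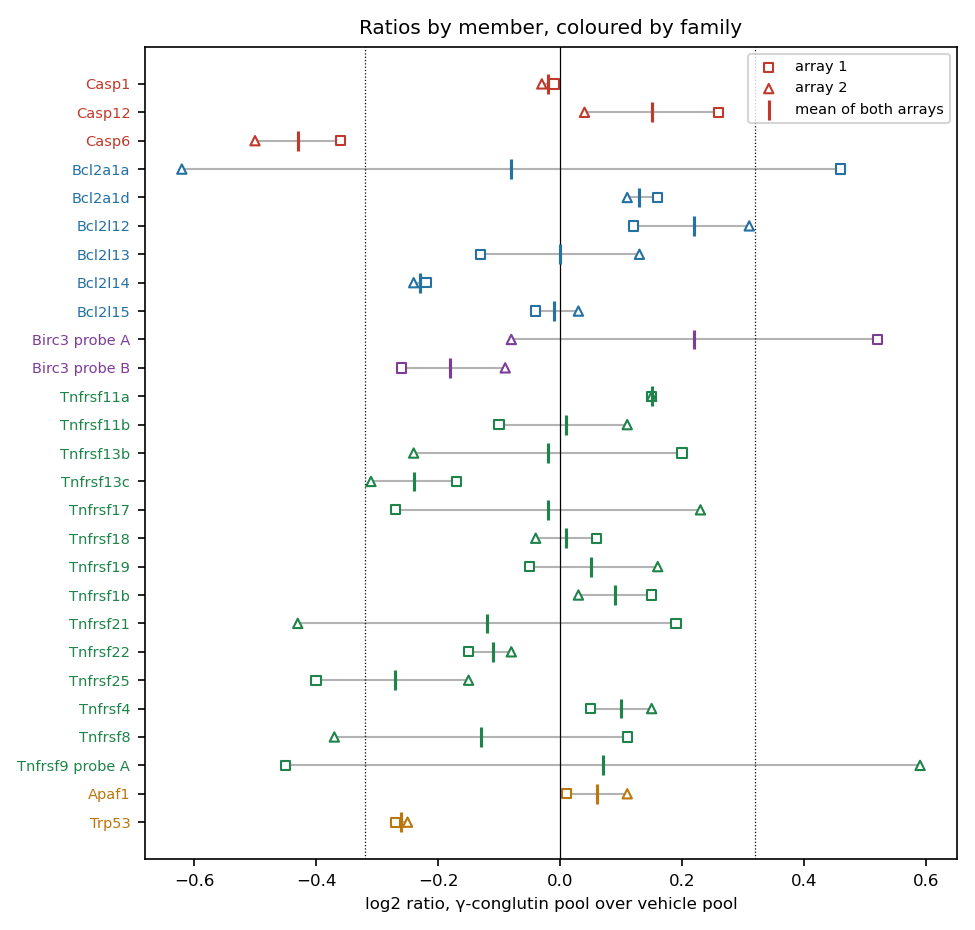
Log2 ratio (γ-conglutin over vehicle) for the 27 members above the limit of empty spots, with squares for array 1, triangles for array 2 and bars for their mean, coloured by family. Dotted lines mark log2 ratios of -0.32 and 0.32, and Casp6 alone lies beyond 1 of them on both arrays.

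Casp6, an executioner caspase that cuts lamins, was the lowest member. Its spot gave 36962 for vehicle and 33264 for γ-conglutin on array 1, and 29333 and 20152 on array 2. Before normalization the γ-conglutin pool was the lower on each array, with Alexa647 on array 1 and Alexa555 on array 2. On array 1 the median library signal was lower for γ-conglutin as well, at 1240 against 1646 for vehicle. With median centring Casp6 gave 0.15 on array 1. After loess over the whole array its log2 ratios were -0.36 and -0.50, a mean of -0.43 ± 0.10. That mean is a level 25.8% lower, or 0.74 times that of vehicle. The dye ratio of Casp6 was small in that setting, 0.07.

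Casp6 stood far down among all probes, but its surroundings were low as well. Of the 20456 probes, 76 (0.372%) had a lower mean ratio, and of the 941 at least as bright as Casp6, 14 did, around a median of 0.00. The rule of 0.32 on both arrays called more bright probes than others: 0.968% of the brightest 20% were lower and 0.023% higher by it, beside 1 and 0 of the 9 members among them. The 8 library spots that touch the Casp6 spot had median ratios of -0.26 on array 1 and -0.11 on array 2, and their means ran from -0.35 to 0.06. The 456 other library spots of its block had medians of -0.14 and 0.09. The part of position in the Casp6 ratio was not tested beyond the fit within blocks given next.

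**Figure D4:**
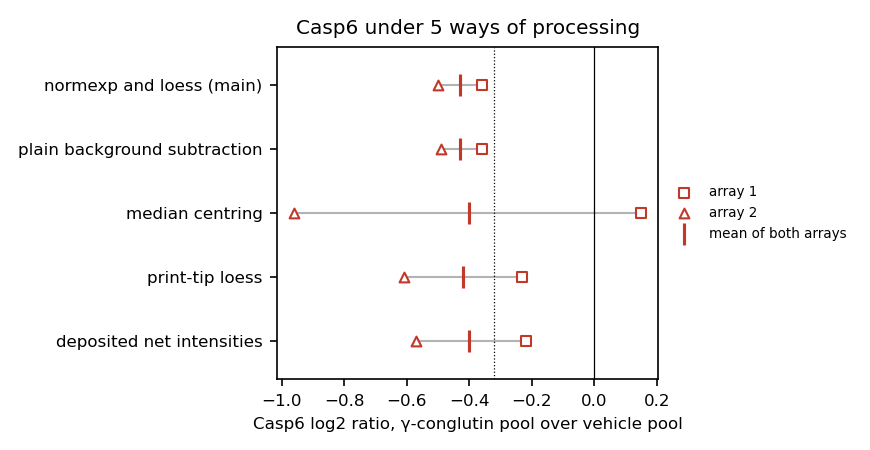
Log2 ratio of Casp6, γ-conglutin pool over vehicle pool, under 5 ways of processing, with squares for array 1, triangles for array 2, bars for their mean and a dotted line at -0.32. The mean stays between -0.43 and -0.40, while array 1 moves from -0.36 to 0.15.

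Over those settings the mean of Casp6 hardly moved, from -0.43 to -0.40, but the value on array 1 did. It was -0.36 with plain background subtraction, -0.23 with loess within print-tip blocks, -0.22 from the deposited net intensities and 0.15 with median centring, while array 2 gave -0.49, -0.61, -0.57 and -0.96. Casp6 therefore passed 0.32 on both arrays under loess over the whole array with either background correction, and in none of the other 3 settings.

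The remaining caspases with signal were Casp12 and Casp1. Casp12, tied to stress of the endoplasmic reticulum in rodents, gave 9415 and 9979 on array 1 and 5639 and 7336 on array 2, for vehicle and γ-conglutin. Its ratios, 0.26 and 0.04, had a mean of 0.15 ± 0.15. With loess within print-tip blocks they were 0.11 and 0.10. Casp1, which cleaves the interleukin 1 precursor in the inflammasome, was dim, with 104, 74.4, 88.2 and 131 in the same order. Its ratio was -0.02 ± 0.01, and in unnormalized intensity the pool in Alexa555 was the brighter on each array.

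Of the Bcl2 family, the 6 spots with signal were Bcl2a1a, Bcl2a1d, Bcl2l12, Bcl2l13, Bcl2l14 and Bcl2l15, 2 with higher and 4 with lower means, around a median of 0.00. Bcl2l12 had the highest mean: 4648 for vehicle and 4105 for γ-conglutin on array 1, 3676 and 6025 on array 2, and ratios of 0.12 and 0.31, a mean of 0.22 ± 0.13. Bcl2l14 had the lowest, with 5673, 3962, 4477 and 5003 and ratios of -0.22 and -0.24, a mean of -0.23 ± 0.01. On array 2 the unnormalized γ-conglutin value of Bcl2l14 was the higher, and the negative ratio came with the correction for the dyes.

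Bcl2a1a and Bcl2a1d are copies of a survival gene that the mouse carries several times. The rat gene table lists Bcl2a1d as a synonym of Bcl2a1, and Bcl2a1a neither as a symbol nor as a synonym. Their probes are named for near-identical mouse genes, and whether they detect different transcripts in rat RNA was not tested. Bcl2a1a was the brightest member, with 37607 and 64798 on array 1 and 56392 and 31241 on array 2, so the pool in Alexa647 was the brighter on both arrays. Its ratios, 0.46 and -0.62, were opposed, with a mean of -0.08 ± 0.76 and a dye ratio of 0.54. Its value of 64798 lay near the 65000 set here as saturation, so the ratio on array 1 may be affected, which was not tested. Bcl2a1d gave 11072, 11184, 10565 and 13078 and ratios of 0.16 and 0.11, a mean of 0.13 ± 0.03. Bcl2a1b and Bcl2a1c, by contrast, lay at 2 of the places without signal.

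Birc3, a ubiquitin ligase that joins TNF receptor complexes, was named on 2 probes. The brighter gave 23934 and 38314 on array 1 and 36588 and 31175 on array 2, and the dimmer 333, 195, 238 and 332. Their ratios went opposite ways: 0.52 and -0.08 for the brighter, a mean of 0.22 ± 0.42, and -0.26 and -0.09 for the dimmer, a mean of -0.18 ± 0.13. The probes disagreed in signal as well as in the sign of the mean, so no direction is given for Birc3.

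The TNF receptor superfamily had the most spots with signal, 14, of which 7 had higher and 7 lower means around a median of -0.01. Tnfrsf25 and Tnfrsf21 are receptors with a death domain. Tnfrsf25, found on T cells and also called DR3, had the lowest mean: 18386 and 13459 on array 1, 10492 and 11019 on array 2, ratios of -0.40 and -0.15, and a mean of -0.27 ± 0.17. Tnfrsf21, also called DR6, was near the limit, with 53.1, 50.3, 88.0 and 82.2, and its ratios were opposed at 0.19 and -0.43.

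Receptors of the B cell factor BAFF formed a subgroup of 3. Tnfrsf13c, the BAFF receptor, gave 19016 and 16684 on array 1 and 19838 and 16653 on array 2. Before normalization γ-conglutin was thus the lower each time. The ratios of Tnfrsf13c were -0.17 and -0.31, a mean of -0.24 ± 0.10, but 0.12 on array 1 with median centring. Tnfrsf13b had ratios of 0.20 and -0.24 and Tnfrsf17, a plasma cell receptor, of -0.27 and 0.23, both with means of -0.02 and opposite signs by array. The 3 did not move together on either array.

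Of the members that act in bone and immune cells, Tnfrsf11a, the receptor RANK, had the highest mean among receptors with signal. It gave 1686 and 1426 on array 1 and 1118 and 1781 on array 2, and 0.15 on each array after loess over the whole array. With loess within print-tip blocks array 1 gave 0.32 and array 2 gave 0.00. Its decoy partner Tnfrsf11b, osteoprotegerin, had -0.10 and 0.11. The T cell costimulatory receptors Tnfrsf4 and Tnfrsf18 had means of 0.10 ± 0.07 and 0.01 ± 0.07. Tnfrsf8, or CD30, gave 14401, 14744, 7727 and 7394 and opposed ratios of 0.11 and -0.37. Tnfrsf1b, the TNF receptor that lacks a death domain, had 0.15 and 0.03, Tnfrsf19 had -0.05 and 0.16, and Tnfrsf22, a decoy TRAIL receptor of the mouse, -0.15 and -0.08.

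Tnfrsf9, the costimulatory receptor 4-1BB, was named on 2 probes. The brighter fell between the arrays in both pools, from 7941 and 4878 on array 1 to 970 and 2112 on array 2. Its ratios, -0.45 and 0.59, were the most opposed among the receptors, a mean of 0.07 ± 0.73. Between arrays its mean log2 intensity changed by -2.08, where the central 95% of probes lay between -1.06 and 0.69 although both arrays held the same pools. For Casp6, Tnfrsf25 and Tnfrsf8 that change was -0.53, -0.55 and -0.94. The dimmer Tnfrsf9 probe was at the level of empty spots, with 10.3, 9.15, 6.24 and 26.3, so the ratio of 0.16 ± 0.09 that the filter lets through is not read. Tnfrsf23, above the limit in 3 measurements, gave 34.6, 30.2, 42.8 and 75.5 and a ratio of 0.11 on each array.

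Apaf1, the scaffold on which Casp9 is activated, gave 1031 and 778 on array 1 and 1013 and 1569 on array 2. Its ratios were 0.01 and 0.11, a mean of 0.06 ± 0.07. Trp53, the gene of p53, which induces Bax, Fas and Apaf1 among others, gave 10643, 7730, 8840 and 8975. Its ratios, -0.27 and -0.25, were close under loess over the whole array, with a mean of -0.26 ± 0.02 and a dye ratio of -0.01. They were -0.16 and -0.40 with median centring, and -0.31 and -0.20 with loess within print-tip blocks. By intensity alone γ-conglutin was lower on array 1 and about level on array 2.

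**Figure D5:**
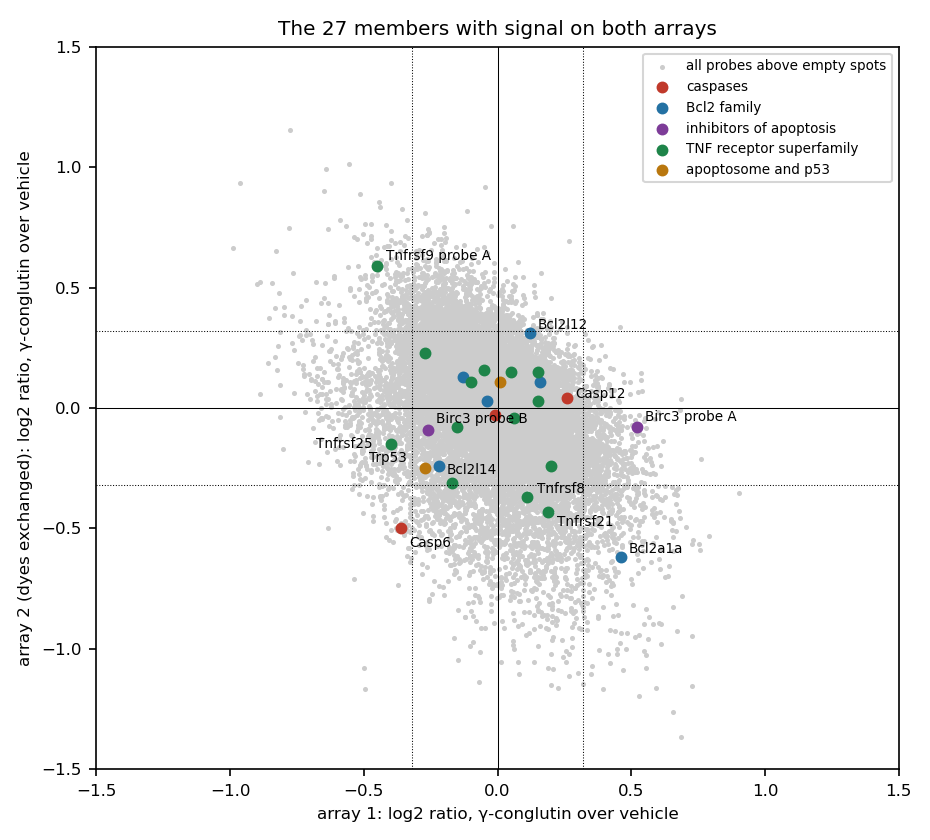
Log2 ratios (γ-conglutin over vehicle) on array 1 (horizontal axis) and array 2 (vertical axis), with grey points for all probes above empty spots and coloured points for the 27 members by family; 1 grey point lies outside the axes. The grey cloud slopes downward, and Casp6 lies at -0.36 and -0.50 below both dotted lines at -0.32.

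Short of the rule of 0.32, the members nearest to it on the lower side were Trp53, whose weaker array gave -0.25, Bcl2l14 with -0.22 and Tnfrsf13c with -0.17. Casp6, inside it, had -0.36. On the higher side the nearest were Tnfrsf11a with 0.15, Bcl2l12 with 0.12 and Bcl2a1d with 0.11. These values hold for loess over the whole array. With median centring the arrays were opposed for Bcl2a1d, at 0.32 and -0.11, and for Tnfrsf13c, at 0.12 and -0.67.

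Genes next to these families in the same routes showed the same gap. Of 48 cell death genes listed outside the naming rule (ligands, adaptors, further Bcl2 relatives, mitochondrial factors, caspase substrates, p53 targets and granule proteins), 46 were on the array and 21 (45.7%) were without signal, against 4.87% of library spots. They included the TRAIL gene Tnfsf10, the caspase 8 inhibitor gene Cflar, Ripk1, the p53 targets Cdkn1a and Pmaip1, and Dffa, which restrains the nuclease of DNA fragmentation. Counted by spot, 21 of the 22 spots of the list without signal lay at the places described above. Of the 25 genes with signal, 0 passed 0.32 on both arrays in either direction. Their median ratio was 0.05, with 18 means above 0. Over the 20456 probes above the same limit the median was 0.01, and 10906 had means above 0. Htra2, a mitochondrial protease that binds inhibitors of apoptosis, was highest, with 0.14 and 0.46, a mean of 0.30 ± 0.23. Tnfsf13b, the gene of BAFF, was lowest, with 0.18 and -0.63, a mean of -0.22 ± 0.57.

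The spots named for liver genes had signal. All 16 hepatocyte markers on the array exceeded the limit, with 0 past 0.32 on both arrays and a median ratio of -0.01, and albumin (Alb) gave 19251 and 20791 on array 1 and 31186 and 23990 on array 2. So did 13 of 14 lymphocyte and neutrophil markers, all but Gzma, and 7 of 7 of Kupffer cells and macrophages, with medians of 0.00 and 0.01. Endothelial markers passed in 4 of 6, without Pecam1 and Cdh5. Since 94.0% of all library spots exceeded the limit, signal at a spot shows hybridisation there and not that the named gene is expressed in liver, which bears on receptors of B and T cells such as Tnfrsf17 and Tnfrsf8.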

How the data were processed

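Per the labels' protocols, liver RNA was extracted on columns and labelled by dye-coupled nucleotides during cDNA synthesis. Per the file headers, the deposited files hold, per spot and dye, a mean raw intensity, the local background intensity and its spread, and a net intensity, with the ratio of both nets. The deposited ratio is Alexa555 over Alexa647, and the deposited log2 values of the series table equal its log2, with column medians of -0.001 and 0.019. The authors' net intensity in Alexa647 also holds an intensity-dependent factor, median 1.28 and 1.38 on arrays 1 and 2, by a method that the sources used here do not state.

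Here, raw and background intensities went through normexp (offset 50) and were normalized by loess over each array, with Gapdh control and empty spots at weight 0 (limma 3.58.1, R 4.3.3). Spots of 1 probe were averaged, and 21702 of 21761 probes passed the background filter. Each member had 1 spot per probe. Of the 23232 spots, 21766 were library, 231 Gapdh control and 1235 empty. Median library signal was 1646 and 1240 on array 1 and 1132 and 1595 on array 2 (vehicle, γ-conglutin). The highest raw intensity of a member was 64852, just below the 65000 set here as saturation. Whether pixels within that spot were saturated was not tested. Array names are mouse symbols, and rat RNA was hybridised to probes named for mouse genes. How well they detect the rat transcripts was not tested for any member, Casp6 and Trp53 included, and a shared symbol does not show it. Of the 58, 51 are current rat symbols in the GRCr8 gene table and 3 more are synonyms there. Probe sequences and genome positions were not used. The number of arrays limits the precision. Members and lists were chosen with earlier results of these data known. Named genes were members at 0.32 on both arrays, the highest, lowest and 3 brightest of a family, those with 2 probes, a fixed set of core genes, and the extremes of the pathway list. Other members were added for description. Summaries used Python 3.11.15. The values of 2 members are not reported here, though they are in the counts.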

Additional observations from a re-analysis of the deposited data

How the results depend on the processing

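Of 61 list values and counts under other processing with both arrays, 48 kept to within 1 SD over arrays or 1.5 times the count. Of 108 ratios of single members, 98 did. The SD allowed was that between the same arrays, so members whose arrays disagree, such as Bcl2a1a with 0.76, keep within it easily. A change of sign was counted only for Casp6, the 1 called member. Its mean kept its sign, while its value on array 1 was 0.15 with median centring. Members higher by 0.32 on both arrays were 0, but 3 with plain background subtraction (Bcl2l10, Casp2 and the dimmer Tnfrsf9 probe) and 1 from the deposited net intensities (Tnfrsf9), all without signal above empty spots, beside 0.406% and 0.359% of all probes in these settings. Members lower by 0.32 were 1, but 2 with plain subtraction (Casp6 and Bak1), 2 from the net intensities (Bak1 and Bcl2l2), and 0 with median centring and with print-tip loess, beside 0.631%, 0.664%, 0.152% and 0.304% of all probes. Bak1 and Bcl2l2 were at the level of empty spots. Family medians moved for caspases from 0.00 to -0.06 from the net intensities, for inhibitors of apoptosis from -0.02 to -0.13 (plain subtraction) and -0.18 (net intensities), and for Apaf1, Diablo and Trp53 from -0.03 to -0.26, -0.22 and, above empty spots only, -0.10. The filter leaves out Diablo by construction. For the other changes the cause was not tested. Members with the same sign on both arrays were 15, and 9 with median centring.

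Each array alone gave 0 to 1 members higher and 0 to 1 lower by 1.5-fold, and 1 to 2 higher and 3 to 4 lower by 0.32. Of all probes, array 1 and array 2 called 0.295% and 0.622% higher and 0.682% and 2.39% lower by 1.5-fold. By 0.32 they called 4.45% and 6.77% higher and 6.23% and 9.52% lower. The 3 lower members of array 1 and the 4 of array 2 were all above empty spots. Only 27 of the 59 members were above them, against 20456 of the 21702 probes, so the shares are not a like comparison. Casp6 was among the lower members on each array, with -0.36 on array 1 and -0.50 on array 2. Members above empty spots were 27, 28 at the 90th percentile, 20 at the 99th, 28 for 1 channel on both arrays and 27 against empty spots of the same block. All of these settings were planned. No paired analysis was possible because every array already sets both pools against each other and each treatment has 1 pool. Signal over background limits the dim members.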
